A study of Polypedilum vanderplanki with 72 samples.

Results

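The comparison described here sets a line of Pv11 cells that carries Drosophila HSF1a in an HSF1 knockout against the knockout itself (KO). Pv11 is a cultured line of the African midge Polypedilum vanderplanki, an insect whose larvae survive almost complete drying. The libraries were chosen by their labels alone: 12 of the 72 libraries, 3 of each line after 48 h in 600 mM trehalose at 25 °C and 3 of each line after 6 h of heat shock. The HSF1a line and KO share the loss of the midge's own HSF1, and the HSF1a line adds overexpressed Drosophila HSF1a. Further lines of the same 2 treatments were used as references, each with 3 libraries per treatment: unmodified wild-type cells (WT), the knockout carrying Drosophila HSF1b, and the knockout carrying isoform V1 of the midge's HSF1. Lines with isoforms V2, V3, V4 and V5-6 in the knockout, treated in the same ways, entered the fits without being described here. The fit of both treatments together also used 18 libraries of WT and the 5 midge isoform lines taken 24 h after rehydration from 11 days of desiccation. Per the labels the modified lines are clonal, and each form of HSF1 is represented by 1 line, so the form and the clone cannot be told apart. The labels do not give the heat shock temperature or the promoter of the introduced gene, and do not say whether libraries of a group came from separate cultures. The p-values therefore measure only the spread between these libraries, which may be technical. Cells without either treatment were not analysed here.

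HSF1, or heat shock factor, is a transcription factor that binds heat shock elements in promoters. In unstressed cells chaperones such as Hsp90 and Hsp70 hold it inactive. Under proteotoxic stress it forms trimers, binds DNA and raises the transcription of heat shock genes, whose products refold or hold damaged proteins. Drosophila makes several HSF isoforms from a single gene by alternative splicing. In Pv11 cells a long incubation in trehalose, a sugar that stands in for water and forms a glass on drying, is the step that prepares them for desiccation.

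Counts assigned to genes ran from 3456979 to 7047196 in the 12 libraries, and libraries of a group differed more than counting error alone, with a variance 2.53 to 9.70 times that of counting error over 12 pairs. Levels are given as CPM, a count divided by the library size after TMM scaling, and are not per length, so they are compared between groups and not between genes. The gene IDs of the deposited table matched none of the 17863 loci of the reference table, so genes are called by their IDs, HSF1 itself could not be read as a check of the knockout, and no role can be attached to a gene. A gene was called where edgeR's quasi-likelihood test gave a Benjamini-Hochberg adjusted p under 0.05.

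After 48 h of trehalose the HSF1a line and KO differed widely. A total of 3175 of 8255 genes tested were called, which is 38.5%, with 1634 higher and 1541 lower in the HSF1a line. The larger differences leaned upward: 633 genes (7.67%) were at least 2-fold higher and 320 (3.88%) at least 2-fold lower, 233 and 72 passed 4-fold, and 70 and 9 passed 16-fold. The median log2 difference of all genes tested was 0.0029. The libraries of the 2 groups did not overlap for 44.7% of the genes tested.

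Among called genes with non-overlapping libraries and a mean of 10 CPM or more in either line, the rule by which genes are named below, the largest rises in trehalose were in genes close to silent in KO. For g240 the 3 HSF1a libraries held 87.3, 73.2 and 80.5 CPM, and none of the 3 KO libraries held a count. The difference was at least 360-fold against a floor of 3 counts over the KO group (edgeR adjusted p = 1.54e-40). For g239 the HSF1a libraries held 330.2, 357 and 395 CPM, against 0, 0 and 0.375 CPM in KO. The 2 KO counts gave a ratio of 2419 with a 95% interval from 669 to 19979 that covers counting error only (edgeR adjusted p = 9.93e-19). Every HSF1a library lay above every KO library for both genes, and WT lay between the lines, with a mean of 11.2 ± 4.01 CPM (SD, n = 3) for g240 and 32.4 ± 4.12 CPM (SD, n = 3) for g239.

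Absence of counts in KO was seen in more genes than absence in the HSF1a line. In trehalose 6 genes had 0 counts in all 3 KO libraries and a mean of 10 CPM or more in the HSF1a line, against none in the other direction. With a lower limit of 1 CPM the numbers were 54 and 22. The HSF1a libraries were the shallower, at 3456979 to 3551145 counts against 3676760 to 5066011. One of the 6 was g1409, at 22.2, 22.9 and 27.4 CPM in the HSF1a line and at least 108-fold above KO (edgeR adjusted p = 6.09e-21). WT libraries held 3.22, 0.848 and 4.90 CPM of g1409, all under the HSF1a libraries.

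Among the falls in trehalose, g4976 stood at 5.05, 2.51 and 3.38 CPM in the HSF1a line and at 56.1, 75.3 and 81.7 CPM in KO. The log2 difference was -4.25 (SE 0.216, edgeR adjusted p = 3.13e-37), and the groups did not overlap. WT was intermediate at 23.5 ± 4.44 CPM (SD, n = 3). For g5605 the HSF1a libraries held 0.561, 1.26 and 0.615 CPM and the KO libraries 17.5, 17.8 and 18.6 CPM, a log2 difference of -4.43 (SE 0.732, edgeR adjusted p = 3.83e-06). The level of g5605 in WT was 2.01 ± 1.84 CPM (SD, n = 3), so KO stood apart from both other lines for this gene.

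After 6 h of heat shock more genes were called between the lines. A total of 3810 of 8264 genes tested were called, or 46.1%, with 1958 higher and 1852 lower in the HSF1a line. The balance turned with the scaling, to 1884 higher and 1934 lower with the size factors of DESeq2. At least 2-fold higher were 722 genes (8.74%) and at least 2-fold lower 511 (6.18%), and 16-fold was passed by 85 and 17. The groups did not overlap for 52.9% of the genes tested. Reads without a feature were set against the sum of those reads and the counts assigned to genes. That share was 42.9% to 43.3% in the heat shocked KO libraries and 39.6% to 40.5% in those of the HSF1a line. Transcripts beyond the 1 kept per gene were outside the sum, so this is not a share of all reads. The part of the gap between the lines in the result was not tested.

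The 4 consecutive IDs g238 to g241 showed the largest contrast after heat shock. The HSF1a libraries held 1631, 1441 and 1510.5 CPM of g241, against 0.256, 0 and 0 CPM in KO. The single KO count gave a ratio of 20886 with a 95% counting interval from 3748 to 824980 (edgeR adjusted p = 3.73e-17). For g238 the HSF1a libraries held 3390.5, 2743 and 2857 CPM and the KO libraries 0.256, 0.227 and 0.374 CPM, a log2 difference of 13.2 (SE 0.333, edgeR adjusted p = 8.95e-18). WT had means of 1228 ± 116 CPM for g241 and 2556 ± 168 CPM for g238 (SD, n = 3), and every HSF1a library lay above every WT library for both genes. Against WT after heat shock the log2 difference of g241 was 0.30 (SE 0.135, edgeR adjusted p = 0.11) and that of g238 was 0.21 (SE 0.135, edgeR adjusted p = 0.266), and the test called neither.

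The gene g239 of that run was high in WT as well. The mean of g239 after heat shock was 21074 ± 2277 CPM (SD, n = 3) in the HSF1a line, 9.86 ± 1.06 CPM in KO and 21693 ± 1030 CPM in WT. In KO its level still exceeded the KO level in trehalose, where 2 counts were found in all. Across g238 to g241 the log2 difference from KO ran from 8.20 to 11.4 in trehalose and from 11.1 to 13.9 after heat shock, and all 4 were called in both treatments. The trehalose values for genes without counts in KO are fitted and are no bound. The IDs next to the run, chosen after their values were seen, were also called higher after heat shock, at lower levels. For g237 the HSF1a libraries held 22.9, 16.1 and 23.8 CPM and KO had no count, a difference of at least 95.4-fold (edgeR adjusted p = 1.11e-27), while WT held 49.99 ± 2.45 CPM (SD, n = 3). For g242 they held 9.93, 15.7 and 11.2 CPM against no count in KO, at least 55.8-fold more (edgeR adjusted p = 1.82e-17), and WT held 8.62 ± 0.984 CPM (SD, n = 3). For g236 they held 22.9, 13.9 and 17.7 CPM against 1 count in KO (edgeR adjusted p = 2.31e-23). These 3 genes had at most 1 count in the HSF1a group in trehalose and were not tested there. In trehalose the HSF1a line was above WT for g239, by a log2 difference of 3.48 (SE 0.189, edgeR adjusted p = 2.65e-14), whereas after heat shock that difference was -0.058 (SE 0.103, edgeR adjusted p = 0.731).

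The largest falls after heat shock were another consecutive pair, g13939 and g13940. For g13939 the HSF1a libraries held 0.764, 1.19 and 1.15 CPM and the KO libraries 28.7, 34.3 and 40.7 CPM, a log2 difference of -5.02 (SE 0.345, edgeR adjusted p = 6.58e-24). For g13940 they held 0, 1.59 and 0.769 CPM against 30.2, 22.7 and 24.3 CPM, a log2 difference of -4.99 (SE 0.399, edgeR adjusted p = 4.75e-20). Neither gene overlapped between the lines. The HSF1a line also lay under WT, which held 13.3 ± 1.44 CPM of g13939 and 11.8 ± 0.677 CPM of g13940 (SD, n = 3). The HSF1b line, at 0.715 ± 0.397 CPM of g13939 (SD, n = 3), was as low, and its log2 difference from the HSF1a line was not called (0.47, SE 0.625, edgeR adjusted p = 0.654).

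**Figure D1:**
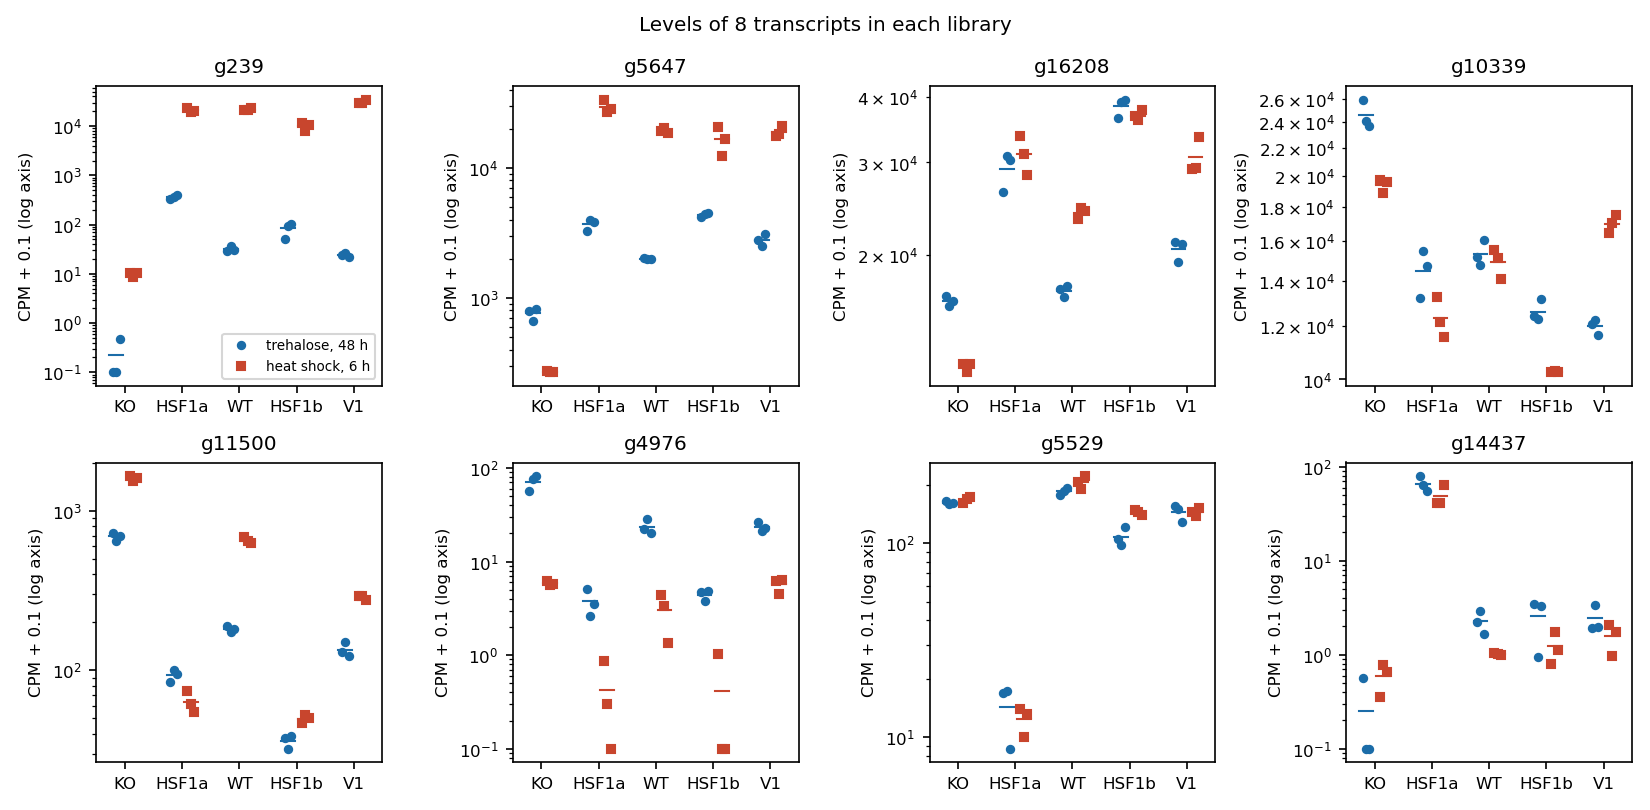
Levels of 8 genes in each library (points) and group means (short lines), as CPM plus 0.1 on a log axis, for KO, the HSF1a line, WT, the HSF1b line and the V1 line after 48 h of trehalose (circles) and 6 h of heat shock (squares). The HSF1a libraries lie above all KO libraries for g239, g5647, g16208 and g14437 and under all of them for g10339, g11500, g4976 and g5529.

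Differences were also seen in genes that take large shares of the counts, and those in this paragraph were chosen after their values were seen. After heat shock g5647 reached 33432, 26710.3 and 28198 CPM in the HSF1a line and stood at 276, 268 and 269 CPM in KO, a log2 difference of 6.77 (SE 0.162, edgeR adjusted p = 3.59e-18). In trehalose it held 3286, 3936 and 3846 CPM against 796, 666 and 825 CPM, a log2 difference of 2.28 (SE 0.0653, edgeR adjusted p = 3.71e-60). The level of g5647 thus went up with heat shock in the HSF1a line and was lower after heat shock than in trehalose in KO. The counts of g5646, g5647 and g5648 differed by no more than 2.91% between any pair summed over libraries, so these IDs may count the same reads and are taken as 1 signal. In the consecutive IDs g16203 to g16208 all 6 were called higher in both treatments, with log2 differences from 0.75 to 0.95 in trehalose and from 1.06 to 1.75 after heat shock. One of them, g16208, held 26362, 30839.6 and 30350.3 CPM in the HSF1a line and 16683, 16016 and 16319.6 CPM in KO in trehalose, a log2 difference of 0.85 (SE 0.0559, edgeR adjusted p = 8.55e-28). Pairs among these 6 IDs differed by 3.74% or more in their summed counts, and whether they share reads was not tested.

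In the other direction, g10339 held 13185, 15483 and 14720.4 CPM in the HSF1a line and 25911.5, 24059.8 and 23711 CPM in KO in trehalose, a log2 difference of -0.76 (SE 0.0558, edgeR adjusted p = 3.02e-24). After heat shock the difference was -0.65 (SE 0.0455, edgeR adjusted p = 2.12e-23). The counts of g10337, g10342 and g24743 came within 4.28% of it and of each other, so these IDs may also count the same reads. KO was the highest of the 5 lines for g10339 in both treatments, and WT and the HSF1a line in trehalose differed by a log2 value of -0.086 that was not called (SE 0.0556, edgeR adjusted p = 0.267). The 20 most abundant genes of each library took 27.4% to 29.6% of its counts in the heat shocked HSF1a line, 25.6% to 25.7% in WT and 19.3% to 19.9% in KO.

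Genes that separate KO from WT were followed in libraries that did not enter their choice. In trehalose 411 genes lay under WT by 2-fold or more in KO, and 360 of them were tested after heat shock. There 185 of the 360 were called higher and 41 lower in the HSF1a line than in KO, against 23.7% higher and 22.4% lower among all genes. Their median log2 difference was 0.67 ± 0.0455 (SD of 3 library medians), against 0.045 for all genes. In comparisons of lines that SD is over the 3 HSF1a libraries and holds no spread of the other group. Against WT the same genes had a median of 0.16, with 99 higher and 57 lower in the HSF1a line, beside 12.9% and 16.5% of all genes.

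Heat shocked KO gave 353 genes under WT by 2-fold or more, which were followed in trehalose. Of the 299 tested there, 144 were higher and 13 lower in the HSF1a line than in KO, against 19.8% and 18.7% of all genes, and the median was 0.71 ± 0.0327 (SD of 3 library medians). Against WT the median was -0.043, with 67 higher and 62 lower, beside 14.6% and 13.5% of all genes. The KO line is the same clone in both treatments, so a difference that belongs to that clone would appear in both.

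Genes that stood 2-fold or more above WT in KO leaned lower in the HSF1a line than in KO, and their medians stayed above WT. Of 162 such genes from trehalose, 150 were tested after heat shock, and 71 were lower and 23 higher in the HSF1a line than in KO, beside 22.4% and 23.7% of all genes, with a median of -0.55 ± 0.0571 (SD of 3 library medians). Against WT they had a median of 0.42, with 62 higher and 20 lower, beside 12.9% and 16.5% of all genes. Of 211 such genes from heat shock, 180 were tested in trehalose, where 66 were lower and 34 higher than in KO, beside 18.7% and 19.8% of all genes, with a median of -0.33 ± 0.0416 (SD of 3 library medians). Their median against WT was 0.35, with 70 higher and 29 lower beside 14.6% and 13.5% of all genes.

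Single members of these lists went far beyond the WT level or against their list. In the list of genes high in KO in trehalose, g11500 fell after heat shock to 73.9, 61.5 and 54.8 CPM in the HSF1a line from 1653, 1549 and 1605 CPM in KO, a log2 difference of -4.65 (SE 0.0681, edgeR adjusted p = 1.01e-76). WT held 651 ± 28.3 CPM (SD, n = 3), so the HSF1a line lay on the far side of WT from KO. The HSF1b line, at 49.7 ± 2.99 CPM, and the V1 line, at 285 ± 9.53 CPM (SD, n = 3), were also under WT. The gene g355, lower in KO than in WT, was lower again in the HSF1a line after heat shock, at 5.54, 6.74 and 10.0007 CPM against 56.3, 52.7 and 63.9 CPM in KO and 130.3 ± 6.10 CPM in WT (SD, n = 3). Its log2 difference from KO was -2.95 (SE 0.149, edgeR adjusted p = 7.81e-33). For g14660, high in KO in trehalose, the HSF1a libraries after heat shock held 13.2, 10.3 and 10.6 CPM and the KO libraries 0.512, 0.454 and 2.43 CPM, a log2 difference of 3.21 (SE 0.535, edgeR adjusted p = 2.85e-07).

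The gene g10530 entered the list of genes high in KO after heat shock on low levels. Heat shocked KO held 1.77 ± 0.653 CPM and heat shocked WT 0.364 ± 0.631 CPM (SD, n = 3). In trehalose the HSF1a libraries held 47.4, 60.6 and 61.8 CPM of g10530 against 0, 1.57 and 0.375 CPM in KO, a log2 difference of 6.51 (SE 0.278, edgeR adjusted p = 2.16e-44). The WT libraries held 0, 0.565 and 0 CPM, while the HSF1b line held 64.6 ± 5.93 CPM and the V1 line 41.0 ± 5.04 CPM (SD, n = 3). The 3 lines named here that carry an introduced HSF1 were thus high for g10530 in trehalose, and KO and WT were low. The lines with isoforms V2, V3, V4 and V5-6 are not described for this gene. From the same list, g13562 was lower in the HSF1a line, at 11.5, 16.3 and 20.6 CPM against 212, 217 and 252 CPM in KO (log2 difference -3.81, SE 0.127, edgeR adjusted p = 2.69e-55), and the V1 line was near it at 11.8 ± 1.65 CPM (SD, n = 3).

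**Figure D2:**
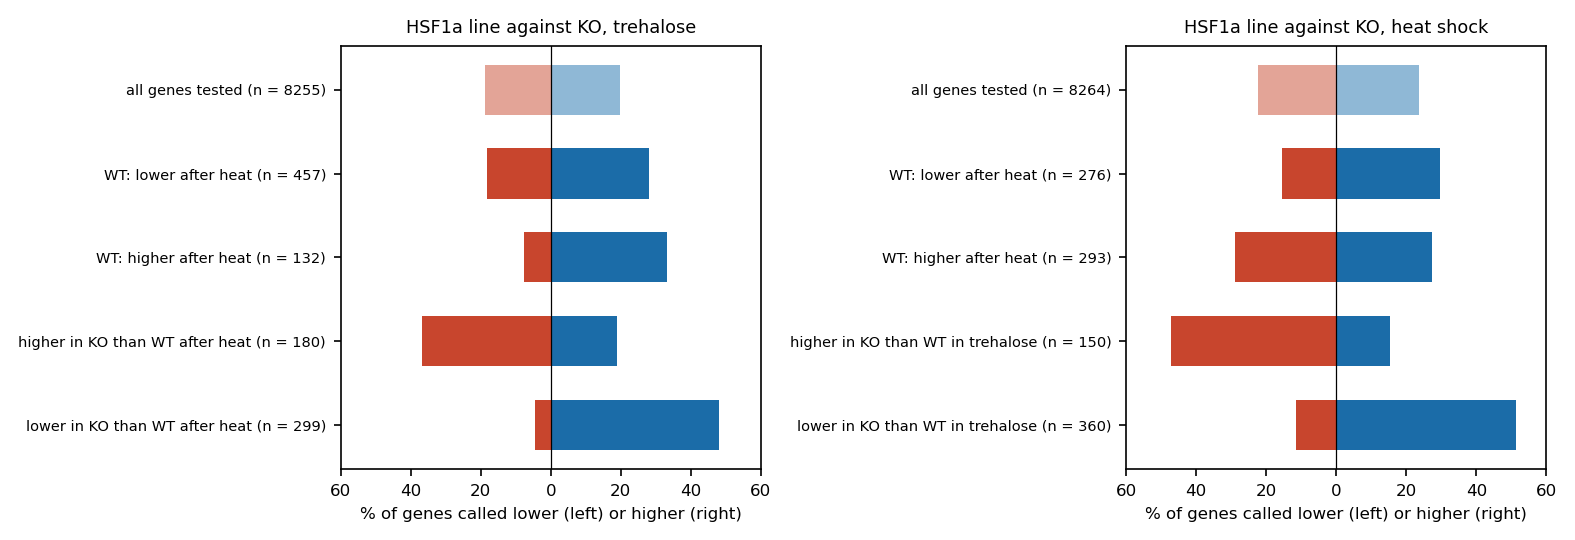
Share of each list's tested genes called lower (left of 0) or higher (right of 0) in the HSF1a line than in KO, in %, after trehalose and after heat shock, with the share over all genes tested in paler bars. Genes low in KO reach 48.2% higher in trehalose and 51.4% higher after heat shock, beside 19.8% and 23.7% of all genes.

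The heat response of WT gave a further reference. Heat shocked WT libraries held 312 genes at least 4-fold above trehalose and 504 at least 4-fold under it. Across the 312 genes the median log2 difference between heat shock and trehalose was 2.81 ± 0.0326 in KO and 2.203 ± 0.0527 in the HSF1a line (SD of 3 library medians). Heat shock was called to raise 228 and lower 7 of the 312 in KO, and to raise 216 and lower 0 in the HSF1a line. Over all 9231 genes it was called to raise 2701 and lower 2693 in KO, and to raise 2618 and lower 2523 in the HSF1a line. The difference between the responses of the lines was called for 67 of the 312, with 20 higher and 47 lower in the HSF1a line, where 11.0% and 12.4% of all genes were called. After heat shock itself the HSF1a line was higher than KO for 80 and lower for 85 of 293 tested (27.3% and 29.0%, beside 23.7% and 22.4% of all genes), with a median of -0.014. In trehalose 44 were higher and 10 lower of 132 tested (33.3% and 7.58%, beside 19.8% and 18.7% of all genes), with a median of 0.41 ± 0.104 (SD of 3 library medians). Only these 132 of the 312 passed the filter on low counts in trehalose, which a gene can pass through the HSF1a libraries alone. How far that filter shapes the lean in trehalose was not tested. The 2 treatments may differ in more than heat, since the labels give no untreated cells for either.

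The heat-raised list held members at both extremes. Besides g238 to g241, which rose as described, g3418 stood after heat shock at 1.53, 2.78 and 1.15 CPM in the HSF1a line, 27.9, 34.3 and 36.0 CPM in KO and 19.8 ± 2.71 CPM in WT (SD, n = 3). Its log2 difference from KO was -4.15 (SE 0.325, edgeR adjusted p = 1.55e-20). For g2553 the HSF1a libraries held 8.79, 8.92 and 10.2 CPM and the KO libraries 119, 124 and 121 CPM, a log2 difference of -3.69 (SE 0.151, edgeR adjusted p = 9.54e-40). For both genes KO and WT were high and the HSF1a line was low. The V1 line was not called different from it, at log2 differences of 1.34 for g3418 (SE 0.602, edgeR adjusted p = 0.0747) and 0.048 for g2553 (SE 0.211, edgeR adjusted p = 0.889). Against the HSF1b line the HSF1a line was called lower for both, by log2 differences of -2.26 and -1.13.

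The 504 heat-lowered genes had a median response of -2.13 ± 0.0764 in KO and -2.10 ± 0.0579 in the HSF1a line (SD of 3 library medians), and the difference between the responses was called higher in the HSF1a line for 59 and lower for 45, where 11.0% and 12.4% of all genes were called. After heat shock 82 of 276 tested were higher and 43 lower in the HSF1a line than in KO (29.7% and 15.6%, beside 23.7% and 22.4% of all genes), with a median of 0.26 ± 0.112 (SD of 3 library medians). Only these 276 of the 504 passed the filter on low counts, which a gene can pass through the HSF1a libraries alone. The part of that filter in the lean was not tested. A large rise among the 276 was that of g10469, whose HSF1a libraries held 40.1, 48.4 and 40.6 CPM after heat shock against 0, 2.04 and 0.934 CPM in KO (log2 difference 5.37, SE 0.405, edgeR adjusted p = 8.67e-20). WT was at 1.83 ± 0.331 CPM for g10469 (SD, n = 3), so the HSF1a line was the highest of these 3.

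The differences of the 2 treatments come from separate libraries of the same lines. Of 7826 genes tested in both, 818 were called higher in the HSF1a line in both and 808 lower in both. The 818 are 52.7% of the genes called higher in trehalose and 43.3% of those called higher after heat shock. The 808 are 53.5% and 45.6% of the lower ones. Opposite calls were made for 266 genes, and for all 266 the difference between the treatments was itself called. That is close to given in advance, since a difference of opposite effects exceeds either effect and the same libraries enter. Across the 7826 genes the log2 differences had a Pearson r of 0.62, which is a description across genes that are not independent replicates.

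**Figure D3:**
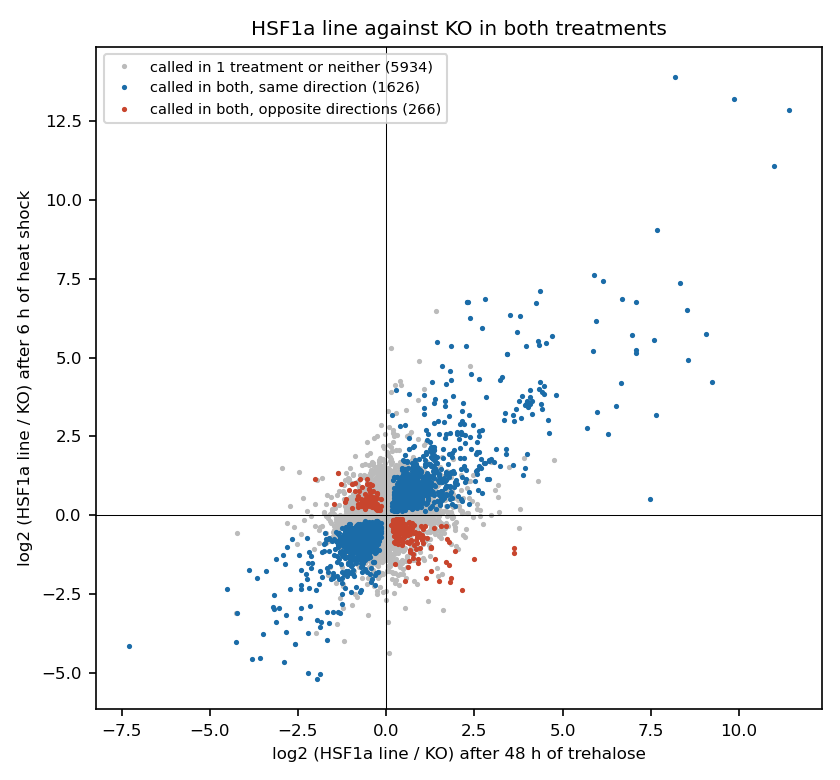
Log2 difference between the HSF1a line and KO after trehalose (horizontal) and after heat shock (vertical), 1 point per gene for 7826 genes. Genes called in both treatments in the same direction (blue, 1626) lie along the diagonal, and 266 (red) were called in opposite directions.

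The test of the difference between the treatments, fitted over all 72 libraries, called 2161 of 9231 genes, or 23.4%, with 1014 (11.0%) where the HSF1a line stood higher relative to KO after heat shock than in trehalose and 1147 (12.4%) where it stood lower. The clearest of the named genes was g16359. In trehalose its HSF1a libraries held 193, 183 and 205 CPM and its KO libraries 181, 165 and 183 CPM, and the difference was not called (log2 0.14, SE 0.0736, edgeR adjusted p = 0.119). After heat shock they held 99.3, 97.6 and 90.006 CPM against 1.79, 1.82 and 3.36 CPM, a log2 difference of 5.30 (SE 0.193, edgeR adjusted p = 1.23e-43). The difference of the effects was 5.16 (SE 0.199, edgeR adjusted p = 7.23e-44). Heat shocked WT held 30.8 ± 2.07 CPM (SD, n = 3), between KO and the HSF1a line.

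The other genes named by that test rest on groups near the counting floor. For g5605 the difference of effects was 6.81 (SE 1.58, edgeR adjusted p = 0.000576), but after heat shock the HSF1a line had 13 counts and KO 2, a ratio of 5.74 with a 95% counting interval from 1.30 to 52.4. For g14216 it was -7.33 (SE 1.20, edgeR adjusted p = 1.33e-06), where KO had no count in trehalose and the HSF1a line held 7.58, 2.51 and 5.53 CPM, at least 23.3-fold more. After heat shock g14216 held 35.1, 26.0 and 35.0 CPM in the HSF1a line and 19.2, 23.6 and 23.9 CPM in KO. For g1469 it was -5.37 (SE 1.71, edgeR adjusted p = 0.0131), with no KO count in trehalose, and the call was lost without the first heat shocked KO library (edgeR adjusted p = 0.0584) or without the second (edgeR adjusted p = 0.0537).

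Against WT fewer genes were called than against KO. In trehalose 2324 genes were called, or 28.2%, with 1207 higher (14.6%) and 1117 lower (13.5%), and after heat shock 2435, or 29.5%, with 1069 higher (12.9%) and 1366 lower (16.5%). By the same test KO itself differed from WT for 2345 of 8255 genes in trehalose and 2326 of 8264 after heat shock. In both treatments g5529 was among the 2 largest falls of the HSF1a line against WT. In trehalose its HSF1a libraries held 16.8, 17.3 and 8.61 CPM and its WT libraries 178, 185 and 193 CPM, a log2 difference of -3.70 (SE 0.130, edgeR adjusted p = 1.15e-52). KO held 161 ± 2.93 CPM, the HSF1b line 108 ± 11.4 CPM and the V1 line 145 ± 14.4 CPM (SD, n = 3), so the HSF1a line was low against each of these lines. After heat shock the HSF1a line held 12.3 ± 2.12 CPM of g5529, and the means of the other 4 lines described here were 144 to 206 CPM. With the remaining isoform lines included, g5529 was not among the 9 genes under all 24 other libraries of a treatment in both treatments.

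The rises against WT were of more than one kind. For g11936 the HSF1a libraries held 65.3, 56.3 and 59.6 CPM after heat shock and the WT libraries 0.377, 0.364 and 0 CPM, a log2 difference of 7.78 (SE 0.413, edgeR adjusted p = 4.37e-14). KO held 101 ± 6.10 CPM of g11936 (SD, n = 3), so WT stood apart and the HSF1a line lay under KO. For g12682 the HSF1a libraries held 14.3, 13.5 and 4.92 CPM in trehalose, with no count in WT, KO or the V1 line and 2 counts in the HSF1b line. The level was at least 40.6-fold above WT (edgeR adjusted p = 6.32e-09) and at least 48.9-fold above KO (edgeR adjusted p = 8.19e-10). The largest fall against WT in trehalose was that of g14027, which held 3.37, 0.628 and 1.23 CPM against 46.9, 43.0 and 44.1 CPM (log2 difference -4.62, SE 0.315, edgeR adjusted p = 1.78e-26).

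The HSF1a and HSF1b lines were closer to each other than the HSF1a line was to KO by the count of calls. In trehalose 1695 genes were called, or 20.5%, with 737 higher (8.93%) and 958 lower (11.6%) in the HSF1a line, and after heat shock 2035, or 24.6%, with 1045 higher (12.6%) and 990 lower (12.0%). At least 2-fold differences numbered 169 higher (2.05%) and 140 lower (1.70%) in trehalose, and 208 (2.52%) and 168 (2.03%) after heat shock. The extreme was g3835, which held 220.4, 211 and 217 CPM in the HSF1b line in trehalose and no count in the HSF1a line, at least 720.1-fold less (edgeR adjusted p = 1.55e-40). KO also had no count of g3835 in trehalose and WT had 3, so the HSF1b line stood apart from these lines.

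In the other direction g14437 held 41.3, 41.1 and 63.7 CPM in the HSF1a line after heat shock and 0.700, 1.67 and 1.03 CPM in the HSF1b line, a log2 difference of 5.37 (SE 0.335, edgeR adjusted p = 1.38e-25). In trehalose it held 79.5, 63.4 and 55.3 CPM in the HSF1a line, and the means of the other 4 lines lay between 0.155 and 2.48 CPM. In both treatments the HSF1a line was the highest of the 5 for g14437. With the remaining isoform lines included, g14437 was not among the 22 genes above all 24 other libraries of a treatment in both treatments. The gene g9173 differed between the HSF1a and HSF1b lines in trehalose, at 49.7, 43.7 and 48.6 CPM against 1.48, 0 and 2.22 CPM (log2 difference 5.16, SE 0.389, edgeR adjusted p = 5.56e-23).

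The lines with the Drosophila isoforms also differed for g239 and g5647. After heat shock g239 held 10192 ± 1899.7 CPM in the HSF1b line (SD, n = 3), and the HSF1a line was higher by a log2 difference of 1.02 (SE 0.105, edgeR adjusted p = 2.71e-07). In trehalose the HSF1a line was higher by 2.11 (SE 0.168, edgeR adjusted p = 1.54e-10). For g5647 the sign of the difference turned with the treatment, at -0.25 in trehalose (SE 0.0616, edgeR adjusted p = 0.00116) and 0.81 after heat shock (SE 0.125, edgeR adjusted p = 5.41e-05). Of the 276 tested genes that heat lowered in WT, 67 were higher and 24 lower in the HSF1a line than in the HSF1b line after heat shock, beside 12.6% and 12.0% of all genes, with a median of 0.36 ± 0.0609 (SD of 3 library medians). Here too a gene could pass the filter through the HSF1a libraries alone, and the part of that filter in the lean was not tested.

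Against the V1 line, which carries the midge's own isoform, 2671 genes were called in trehalose, or 32.4%, with 1386 higher (16.8%) and 1285 lower (15.6%) in the HSF1a line. After heat shock 2892 were called, or 35.0%, with 1237 higher and 1655 lower. The heat-raised list of WT was lower in the HSF1a line here: 126 of 293 tested were lower and 34 higher, with a median of -0.53 ± 0.00983 (SD of 3 library medians), against 20.0% lower and 15.0% higher among all genes. For g239 after heat shock the V1 line held 31295 ± 2781 CPM (SD, n = 3), and the HSF1a line was lower by a log2 difference of -0.60 (SE 0.104, edgeR adjusted p = 0.00011).

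The largest fall against the V1 line after heat shock was that of g17255, at 2.10, 2.18 and 2.69 CPM in the HSF1a line and 48.2, 57.2 and 77.0 CPM in the V1 line (log2 difference -4.72, SE 0.263, edgeR adjusted p = 1.34e-28). KO held 0.628 ± 0.577 CPM and WT 7.89 ± 2.34 CPM of g17255 (SD, n = 3), so the V1 line lay above WT and the HSF1a line between KO and WT. The largest rise was that of g55, at 52.5, 51.2 and 48.8 CPM against 0.280, 0.879 and 1.10 CPM (log2 difference 5.97, SE 0.310, edgeR adjusted p = 1.79e-31). The HSF1b line was also high for g55, at 29.7 ± 5.47 CPM (SD, n = 3), while KO and WT had means of 0.427 and 0.669 CPM.

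**Figure D4:**
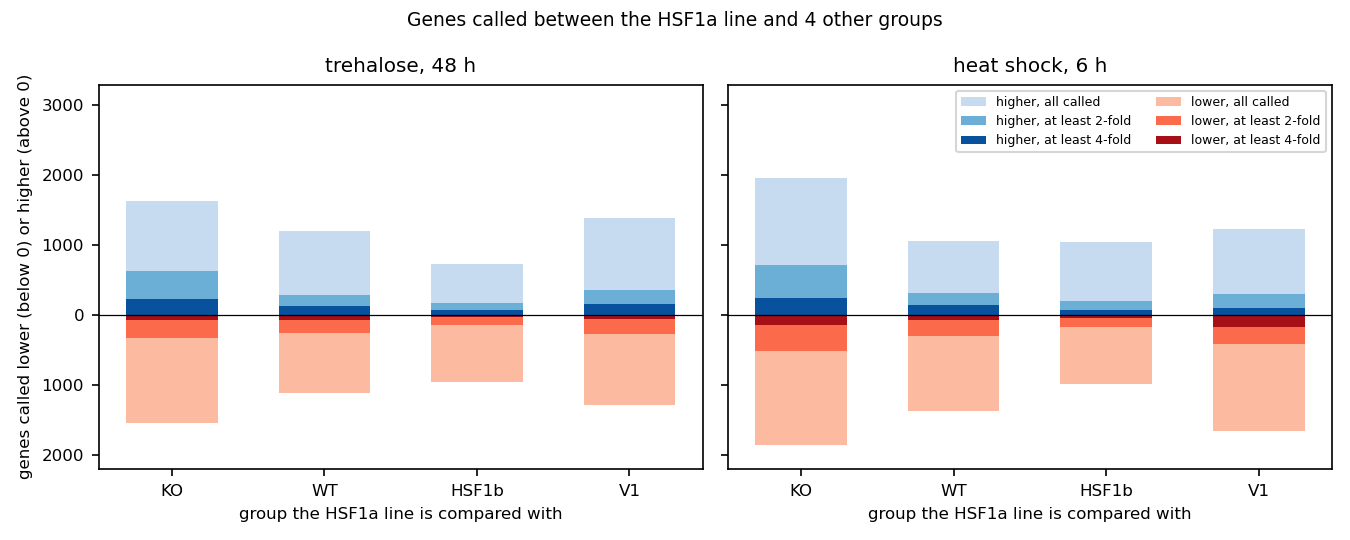
Number of genes called higher (above 0) or lower (below 0) in the HSF1a line than in KO, WT, the HSF1b line and the V1 line, after trehalose and after heat shock, with darker shades for differences of at least 2-fold and at least 4-fold. The bars against KO are the tallest in both treatments (3175 and 3810 genes called) and those against the HSF1b line the shortest (1695 and 2035).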

How the data were processed

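PolyA RNA was sequenced, and the authors deposited a table of raw counts per transcript, in whole numbers. The tools, as given by the submitters' processing notes, were FastQC 0.11.9, Trimmomatic 0.39, HISAT2 2.2.1 and HTSeq 2.0.9. The genome build, annotation and strand setting are not given in the sources used here, so reads of overlapping genes or antisense partners cannot be separated. Of 65235 transcripts, 1 per gene was kept, that with the highest total, which left 17156 genes. The 5 rows that name no gene were left out of library sizes. Reads without a feature made up 38.9% to 43.3% of their sum with the counts of the kept transcripts in the 12 libraries. The other rows that name no gene and the transcripts not kept were outside that sum.

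Counts were fitted in edgeR 4.0.16 under R 4.3.3 by glmQLFit, with TMM scaling and filterByExpr. A gene could pass this filter through the libraries of a single group, so tested members of a list may have entered through the HSF1a line. Each treatment was fitted with all 27 libraries of its 9 groups, and the difference between treatments with all 72, rehydrated cells included. The robust prior of glmQLFit was chosen after the calls with and without it had been seen. The SE is the size of the log2 difference over the square root of F. The medians of lists are of edgeR's log2 differences. Their SD was taken on log2 of CPM plus 0.5, each library against the mean of the other group. For a heat response the 3 libraries are the heat shocked ones of the line, and the spread in trehalose is left out. Fold bounds use a floor of 3 counts over a group. Ratios on 1 to 3 counts have exact 95% Poisson intervals, which cover counting error only.

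For each comparison the 2 largest rises and 2 largest falls in log2 were named among called genes with a mean of at least 10 CPM in a group and, except for the difference of effects, with libraries that do not overlap, and likewise within each list. Genes of the paragraph on abundant genes and those in the closing section on libraries that stand apart were chosen after their values were seen, as were the consecutive IDs. The lines, lists and rules were chosen with earlier results of these data known. Lists of named genes, heat shock proteins among them, could not be used because no ID matched a name. The fits were tested on simulated data, against KO in trehalose, against KO after heat shock and for the difference of effects. In that order they recovered 44.8%, 52.2% and 25.4% of 1.5-fold changes and 71.6%, 68.7% and 56.7% of 2-fold changes. False calls made up 6.04%, 2.07% and 5.04% of the calls. Alternatives were DESeq2 1.42.0 and its size factors, no filter, the sum of all transcripts, the compared groups only, a doubled list threshold and each library left out.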

Additional observations from a re-analysis of the deposited data

Results flagged for a closer look

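The effect of HSF1a against KO differed between heat shock and trehalose for 2161 genes by edgeR's interaction test at an adjusted p under 0.05. Each difference below is that of log2 effects, heat shock minus trehalose. Of the genes named by that test it was 6.81 for g5605, 5.16 for g16359, -7.33 for g14216 and -5.37 for g1469. It was -3.15 for g13939 (SE 0.805, edgeR adjusted p = 0.00153) and -2.80 for g13940 (SE 1.03, edgeR adjusted p = 0.0351), which were lower than in KO in both treatments and more so after heat shock. Other genes described above were also called. For g5647, chosen after its values were seen, the difference was 4.49 (SE 0.182, edgeR adjusted p = 3.68e-26), and for g11500 it was -1.76 (SE 0.107, edgeR adjusted p = 5.36e-28). The values of g5605, g14216 and g1469 rest on a group with 0 or 2 counts and are fitted, not bounds. Between the HSF1a and HSF1b lines, 1695 genes differed in trehalose and 2035 after heat shock by the same test without an interaction.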

How the results depend on the processing

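No paired analysis was possible because the labels give each library a number of its own, and no number is shared between groups. All 9 counts of called genes stayed within 1.5 times their value under every alternative run, and no named gene changed direction. Against KO, DESeq2 called 3204 genes in trehalose and 3782 after heat shock, and the plain in place of the robust prior, an alternative chosen after seeing the data, called 3180 and 3814. After heat shock the balance of higher and lower calls against KO, 1958 and 1852, turned to 1865 and 1917 with DESeq2 and to 1798 and 1916 with the compared groups only, and to 1653 and 1786 without KO replicate 1 and 1615 and 1758 without KO replicate 3. Against the HSF1b line after heat shock it turned to 942 and 1023 with the compared groups only. With all transcripts summed it turned in trehalose against WT, to 1046 and 1085, and against the V1 line, to 1201 and 1282. With a library left out the counts against KO were 2838 to 2989 in trehalose and 3373 to 3467 after heat shock. Medians of lists moved more, and the cause was not tested. With the list threshold doubled, genes low in KO had medians of 2.11 after heat shock and 2.00 in trehalose, genes high in KO -0.62 and -0.27, heat-raised genes -0.068 and 0.55, and heat-lowered genes 0.97 and 0.39. With all transcripts summed, genes low in KO had 0.77 after heat shock and 0.66 in trehalose, and heat-raised genes 0.027 after heat shock, a turn of sign of a median near 0. With a library left out, the medians after heat shock ran from 0.62 to 0.75 for genes low in KO, -0.55 to -0.49 for genes high in KO, -0.059 to -7.67e-05 for heat-raised and 0.20 to 0.38 for heat-lowered genes. In trehalose they ran from 0.66 to 0.71, -0.37 to -0.27, 0.40 to 0.57 and 0.10 to 0.23 in the same order. The call of g1469 in the difference of effects was the only named call lost, under 2 of the left-out libraries. Depth limits genes under the floor of 3 counts over a group. Their fold values above are bounds where the group had no count, and otherwise ratios with counting intervals. Their log2 values are fitted.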

Other observations

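Some genes set the HSF1a line apart from every library of the other 8 groups of a treatment, which are KO, WT, the HSF1b line and the lines with isoforms V1, V2, V3, V4 and V5-6. In trehalose 178 genes, 2.16% of those tested, were higher in all 3 HSF1a libraries than in all 24 others, and 83 were lower. Of 166 of the 178 tested after heat shock, 22 stood above all others again, which is 13.3%, against 1.43% of all genes. None was under all others. Of the 83 lower genes, 9 were again lowest, or 10.8% against 1.13%. These genes were chosen after their values were seen. One was g15290, at 5.90, 6.91 and 4.92 CPM in trehalose and 10.9, 12.1 and 13.7 CPM after heat shock, with means of other groups described here from 0 to 1.86 CPM. A lower one was g17534, at 65.4, 50.9 and 52.3 CPM in trehalose, where KO held 181 ± 26.1 CPM (SD, n = 3). Since the line is 1 clone, a difference of the clone and one of HSF1a cannot be told apart.

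Genes with consecutive IDs were often called together. In trehalose 418 of 5942 pairs of consecutive IDs were both higher in the HSF1a line than in KO, 342 both lower and 287 opposite. A gene that followed a higher one was itself higher in 35.8% of cases, against 20.2% over all pairs, and after heat shock in 38.2% against 24.0%. Without rows whose counts came within 2% of the preceding ID the shares were 35.5% and 37.8%. Whether consecutive IDs lie side by side in the genome was not tested.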
